A study of Homo sapiens with 9 samples.

Results

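The genes described here are *ICOS*, *PRKCH*, 4 genes of the IL1 receptor family (*IL1RL1*, *IL18R1*, *IL1R1* and *IL1RAP*) and the 3 chains of the IL2 receptor (*IL2RA*, *IL2RB* and *IL2RG*), 9 of the 60662 genes in the table. They were picked by symbol as IL2–STAT5 response genes that were lowest in *DYRK1A* KO cells, together with related receptors. The difference between KO and WT chose them, so it is given as a description, without a test, for the pooled KO libraries and for each clone. The comparison of one clone with the other is not named in that choice and was tested. Earlier results of these data were known when the genes were chosen.

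RNA-seq was performed on SET2, a *JAK2*-mutant megakaryoblastic leukemia line that the labels class as AML after MPN, without any drug treatment. WT cells (n = 3 libraries) were set against 2 clones with *DYRK1A* knocked out (KO), named 11H1 and 14B5 (n = 3 libraries each), which had received Cas9 ribonucleoprotein by nucleofection. Each KO clone was grown from 1 sorted cell and kept because its *DYRK1A* alleles carried out-of-frame indels, and no clone from an unedited cell was sequenced, so a clonal difference and an effect of *DYRK1A* loss cannot be told apart. The labels do not say whether libraries of a group came from separate cultures, so p values measure the spread between these libraries, which may be technical.

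The libraries held 32347779 to 60272245 expected counts each, and levels are given as CPM (each gene's count divided by the library size, corrected by TMM). *DYRK1A* RNA was at 204 ± 12.8 CPM (SD, n = 3) in WT, 190 ± 1.82 in 11H1 and 183 ± 8.74 in 14B5. Its log2 difference was −0.09 in 11H1 (edgeR adjusted p = 0.131) and −0.17 in 14B5 (edgeR adjusted p = 0.0278, lost without WT replicate 3, 14B5 replicate 2 or 14B5 replicate 3, at 0.104 to 0.138), and a frameshift need not lower RNA. The megakaryocyte label held for *ITGA2B*, at 920 ± 8.25 CPM in WT, whereas *VWF* did not exceed 5 counts in any library. Of 10 megakaryocyte markers tested in KO versus WT, 9 fell, against 17.7% of all genes tested. Their summed level was 1125 to 1132 CPM in WT, 755 to 780 in 11H1 and 673 to 695 in 14B5. Mitochondrial transcripts took 3.54 to 6.03% of counts in WT, 7.23 to 7.39% in 11H1 and 3.30 to 3.92% in 14B5. The part of either in the results that follow was not tested. In bulk RNA, fewer cells carrying a transcript and less transcript per cell cannot be told apart.

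IL2 binds a receptor whose α chain (*IL2RA*, CD25) raises affinity and whose β chain (*IL2RB*) and common γ chain (*IL2RG*) carry the signal through JAK1 and JAK3 to STAT5. *IL2RG* also serves the receptors for IL4, IL7, IL9, IL15 and IL21. Receptors of the IL1 family pair a ligand-binding chain with an accessory chain and signal through MYD88 and IRAK kinases to NF-κB. *IL1R1* binds IL1, *IL1RL1* (ST2) binds IL33 and *IL18R1* binds IL18, while *IL1RAP* is the accessory chain for the first pair. *ICOS* is a costimulatory receptor of the CD28 family, best known on activated T cells, and *PRKCH* encodes protein kinase C eta. IL33 and its receptor are also well known in mast cells and basophils.

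Of the 9 genes, 3 are neighbours on chromosome 2 and the others lie apart. By GENCODE v29 on GRCh38, *IL1R1* (ENSG00000115594.12) is at chr2:102064544-102179874, *IL1RL1* (ENSG00000115602.16) at chr2:102311502-102352037 and *IL18R1* (ENSG00000115604.10) at chr2:102311529-102398775, all on the plus strand. *IL1RL1* and *IL18R1* share 95 exon bases on the same strand, so reads there could be divided between them. *ICOS* (ENSG00000163600.12) is at chr2:203936748-203961577 and *IL1RAP* (ENSG00000196083.10) at chr3:190514051-190659750, both on the plus strand. *PRKCH* (ENSG00000027075.15) is at chr14:61187559-61550976 on the plus strand. On the minus strand are *IL2RA* (ENSG00000134460.17) at chr10:6010689-6062370, *IL2RB* (ENSG00000100385.14) at chr22:37125838-37175054 and *IL2RG* (ENSG00000147168.12) at chrX:71107404-71112108. *IL2RG* shares 1403 exon bases with *AL590764.2* on the same strand, a gene that reached at most 114 counts in a library. Library-kit descriptions differ between the labels and the paper's methods, so whether counting used strand is not settled. The genes on the strand opposite *PRKCH* did not exceed 5 counts.

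Promoter sequences from RefSeq (GRCh38.p14) were listed for 8 of the 9 genes, as 13 windows of 250 bases before a start site. A window of each of the 3 genes that were lowest in KO, *ICOS*, *IL1RL1* and *PRKCH*, is shown first, followed by *IL18R1* and *IL2RA*, whose levels separated the clones. *IL1RL1* and *IL18R1* have 2 windows each, and only the one at the earlier start is printed. Each is written 5′ to 3′ on the strand of the gene, and that of *IL1RL1* stops before an annotated exon, while those of *PRKCH* and *IL18R1* lie inside the GENCODE gene, before a later start. Capitals mark matches to the motifs searched on both strands.
ICOS, chr2:203936513-203936762, plus strand: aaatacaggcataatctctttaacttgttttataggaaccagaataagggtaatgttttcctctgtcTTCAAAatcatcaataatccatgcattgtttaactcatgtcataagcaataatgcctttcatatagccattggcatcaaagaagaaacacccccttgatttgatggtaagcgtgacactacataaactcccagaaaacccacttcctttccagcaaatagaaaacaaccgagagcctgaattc
IL1RL1, chr2:102311313-102311501, plus strand: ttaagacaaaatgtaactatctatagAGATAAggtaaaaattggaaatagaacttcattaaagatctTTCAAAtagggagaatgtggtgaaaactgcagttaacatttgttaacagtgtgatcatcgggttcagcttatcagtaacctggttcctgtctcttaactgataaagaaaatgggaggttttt
PRKCH, chr14:61321329-61321578, plus strand: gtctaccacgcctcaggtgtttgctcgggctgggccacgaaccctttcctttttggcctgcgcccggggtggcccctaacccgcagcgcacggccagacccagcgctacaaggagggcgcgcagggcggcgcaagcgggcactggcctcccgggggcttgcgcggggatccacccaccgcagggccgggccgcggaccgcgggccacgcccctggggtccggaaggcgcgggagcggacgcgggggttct
IL18R1, chr2:102355546-102355795, plus strand: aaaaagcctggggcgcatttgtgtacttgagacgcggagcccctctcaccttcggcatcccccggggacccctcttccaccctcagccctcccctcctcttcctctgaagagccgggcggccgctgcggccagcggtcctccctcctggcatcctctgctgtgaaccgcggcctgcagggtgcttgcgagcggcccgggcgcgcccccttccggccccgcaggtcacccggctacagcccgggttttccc
IL2RA, chr10:6062368-6062617, minus strand: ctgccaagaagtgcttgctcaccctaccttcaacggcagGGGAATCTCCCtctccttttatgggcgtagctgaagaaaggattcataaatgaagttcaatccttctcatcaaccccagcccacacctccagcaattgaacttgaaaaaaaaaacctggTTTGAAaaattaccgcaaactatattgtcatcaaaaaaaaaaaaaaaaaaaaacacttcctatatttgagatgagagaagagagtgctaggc

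The letters searched were TTCNNNGAA for STAT factors, AGATAA for GATA factors, TGANTCA for AP-1, TTTGAA for the CHR element bound by MuvB complexes, and the NF-κB motif. The CHR letters were found in 4 of the 13 windows, belonging to *ICOS*, *IL1RL1* (both windows) and *IL2RA*, and in 13.3% of all 35114 windows of the same length. In *ICOS* the match ran from base −183 to −178 before the start site, and in *IL2RA* from −92 to −87. The GATA letters were found in 3 of the 13 windows, those of *IL1RL1*, *IL18R1* (the second window, not printed) and *IL1R1* (not printed), and in 9.17% of all windows. The STAT letters were found in 1 of the 13, of *IL1R1*, against 6.57% of all windows, and the AP-1 letters in 1, the unprinted second window of *IL1RL1*, against 6.57%. NF-κB letters were found in 1, that of *IL2RA*, as overlapping matches on both strands between −211 and −201, and in 5.21% of all windows. A match of letters is a description and not a binding site.

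*ICOS* RNA measured 6.10, 4.84 and 6.71 CPM across WT libraries (replicates 1 to 3, the order used throughout), 0.349, 0.244 and 0.304 CPM across 11H1 libraries and 0.203, 0.0335 and 0.122 CPM across 14B5 libraries. Every KO library was below every WT library, and the KO values rested on 2 to 19 counts, against 231 to 300 in WT. WT averaged 5.88 ± 0.951 CPM (SD, n = 3) and KO libraries together 0.209 ± 0.117 CPM (SD, n = 6), a log2 difference of −4.85 (SE 0.417), rank 129 from the lowest of 17080 genes. Between the clones, *ICOS* was higher in 11H1 by 1.42 on the log2 scale (SE 0.496, edgeR adjusted p = 0.0252), with no overlap of their libraries. That call was lost without 11H1 replicate 1 (edgeR adjusted p = 0.113), without 11H1 replicate 3 (0.0640) and without 14B5 replicate 2 (0.0934), and also with the DESeq2 Wald test (0.0708).

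*ICOSLG*, the gene for the ligand of ICOS, was at 62.5 ± 1.11 CPM in WT, 50.0 ± 1.23 in 11H1 and 80.7 ± 5.39 in 14B5 (SD, n = 3 each). It fell in 11H1 by 0.31 on the log2 scale (edgeR adjusted p = 7.74e-05) and rose in 14B5 by 0.35 (edgeR adjusted p = 0.000403), so that the clones differed by −0.68 (edgeR adjusted p = 6.9e-07). Of the other CD28 family receptors, *CD28* and *CTLA4* had 0 counts in every library and *PDCD1* and *BTLA* at most 1 and 2. Some defining T cell genes were at or near 0 and others were not. *THEMIS* was at 0, *CD5* did not exceed 1 count, *CD3G* did not exceed 5, and *CD3E* and *CD247* did not exceed 21. *CD3D*, a chain of the T cell receptor complex, reached 166 counts, at 0.832 ± 0.0382 CPM in WT, 3.02 ± 0.607 in 11H1 and 0.342 ± 0.0549 in 14B5. It rose in 11H1 by 1.86 on the log2 scale (edgeR adjusted p = 3.38e-06) and fell in 14B5 by 1.28 (edgeR adjusted p = 0.000767). *CD3D* was thus higher in 11H1 than in 14B5, by 3.13 (edgeR adjusted p = 2.55e-07), as *ICOS* was, but unlike *ICOS* it was above WT in 11H1. The summed level of 10 T cell markers was 190 to 198 CPM in WT, 185 to 189 in 11H1 and 234 to 241 in 14B5, most of it from *CD4*, at 192 ± 3.87 CPM in WT, and the part of these genes in the level of *ICOS* was not tested. Of the 5 tested in KO versus WT, 1 fell, against 17.7% of all genes. It was *CD2*, which did not exceed 23 counts (log2 difference −1.25, edgeR adjusted p = 0.0402). Its call was lost without WT replicate 1 or 3, 11H1 replicate 2, or 14B5 replicate 1 or 3 (adjusted p 0.0581 to 0.159).

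*PRKCH* RNA measured 5.72, 5.98 and 6.27 CPM across WT libraries, 1.36, 1.40 and 1.03 CPM across 11H1 libraries and 1.04, 0.870 and 0.661 CPM across 14B5 libraries. All 6 KO libraries were far below WT, and the clones overlapped narrowly, at 1.03 and 1.04 CPM. The log2 difference from WT was −2.50 (SE 0.210) for KO, −2.22 in 11H1 and −2.83 in 14B5. *PRKCH* was higher in 11H1 than in 14B5 by 0.58 (SE 0.223, edgeR adjusted p = 0.0371). This call was lost with the DESeq2 Wald test (adjusted p = 0.0742) and in edgeR fits without 11H1 replicate 1 (0.112), 11H1 replicate 2 (0.103), 14B5 replicate 2 (0.0689) or 14B5 replicate 3 (0.118).

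The other protein kinase C genes were tested as a list. Of its 14 genes, chosen from general knowledge and including the related PRKD and PKN kinases, 12 were tested in KO versus WT and 3 passed the threshold. Over all genes 32.0% passed in that comparison. *PRKCB* fell from 469 ± 33.0 CPM in WT to 323 ± 9.67 in 11H1 and 369 ± 7.0 in 14B5 (KO log2 difference −0.44, edgeR adjusted p = 0.00191). *PRKD3* fell by 0.38 (edgeR adjusted p = 0.000525) and *PKN2* rose by 0.35 (edgeR adjusted p = 0.00382). *PRKCE*, the closest relative of protein kinase C eta, was at 0.453 ± 0.0529 CPM in WT, with a KO log2 difference of −1.37 (edgeR adjusted p = 0.0529), and passed the threshold without 11H1 replicate 3 (0.0043). The median log2 difference of the list was −0.10, against 0.02 over all genes tested.

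**Figure D1:**
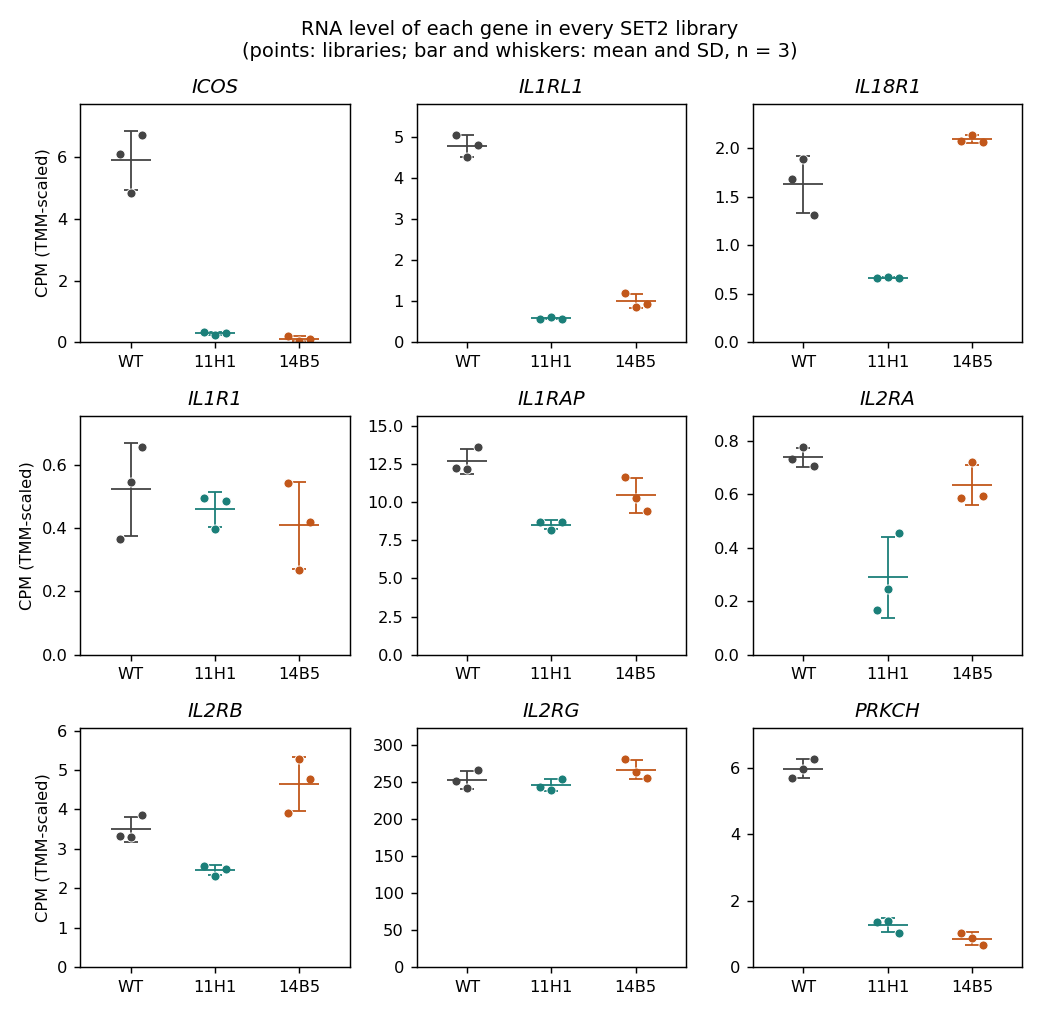
Levels of the 9 genes in each library, 1 panel a gene, in CPM on linear axes that start at 0, with 3 points each for WT, 11H1 and 14B5, a bar at the group mean and whiskers for the SD. *ICOS*, *IL1RL1* and *PRKCH* are far below WT in both clones, *IL18R1* is below WT in 11H1 (0.660 to 0.670 CPM) and above it in 14B5 (2.07 to 2.14 CPM), and *IL2RG* overlaps between clones and WT.

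Of the IL1 family receptors, *IL1RL1* lay furthest below WT. Its RNA measured 5.07, 4.53 and 4.81 CPM across WT libraries, 0.569, 0.609 and 0.578 CPM across 11H1 libraries and 1.20, 0.870 and 0.940 CPM across 14B5 libraries. The 3 groups did not overlap, and 11H1 was the lowest. The log2 difference from WT was −3.03 (SE 0.148) in 11H1 and −2.29 (SE 0.143) in 14B5. *IL1RL1* had a log2 difference of −0.76 between 11H1 and 14B5 (SE 0.218, edgeR adjusted p = 0.00908), a call that held in each of 11 other fits. Its ligand *IL33* had 0 counts in every library.

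*IL18R1*, whose exons begin beside those of *IL1RL1*, differed in direction between the clones. It measured 1.69, 1.89 and 1.31 CPM across WT libraries, 0.660, 0.670 and 0.669 CPM across 11H1 libraries and 2.08, 2.14 and 2.07 CPM across 14B5 libraries. Every 11H1 library was below WT and every 14B5 library above it, with log2 differences of −1.29 (SE 0.205) and 0.34 (SE 0.155). The clones differed by −1.64 (SE 0.169, edgeR adjusted p = 5.25e-06), rank 104 from the lowest of 16352 genes, and the value stayed between −1.67 and −1.64 in 11 other fits. The pooled KO value of −0.22 (SE 0.453) therefore averaged opposite values. It was −0.08 without 11H1 replicate 1, −0.39 without 14B5 replicate 2 (the extremes when each library was left out) and −0.47 in a fit of 3 groups. *IL18RAP*, the accessory chain for IL18 and the next gene after *IL18R1*, was low, at 0.291 ± 0.0345 CPM in WT, 0.429 ± 0.0839 in 11H1 and 0.636 ± 0.0825 in 14B5. It rose in 14B5 by 1.12 on the log2 scale (edgeR adjusted p = 0.00336). The pooled KO difference of 0.88 (edgeR adjusted p = 0.0348) lost its call without any 1 of the WT or 14B5 libraries (0.0510 to 0.135).

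*IL1RAP* measured 12.2, 12.2 and 13.6 CPM across WT libraries, 8.70, 8.16 and 8.67 CPM across 11H1 libraries and 11.7, 10.3 and 9.40 CPM across 14B5 libraries. The groups did not overlap, and the log2 differences from WT were −0.56 (SE 0.0782) in 11H1 and −0.30 (SE 0.0919) in 14B5. The clones differed by −0.28 (SE 0.0859, edgeR adjusted p = 0.0122). *IL1R1*, the IL1 receptor itself, was close to the limit of counting, at 0.366 to 0.656 CPM in WT, 0.396 to 0.495 in 11H1 and 0.268 to 0.542 in 14B5. Its groups overlapped in every comparison, and the clone difference of 0.21 (SE 0.306, edgeR adjusted p = 0.571) was smaller than its error. The ratio of *IL1RAP* to *IL1RL1* level, per kilobase of exon, was 1.20 to 1.41 in WT libraries, 6.66 to 7.60 in 11H1 and 4.84 to 5.88 in 14B5. The ratio of *IL1RL1* to *IL18R1* was 1.82 to 2.78 in WT, 0.652 to 0.689 in 11H1 and 0.308 to 0.436 in 14B5, so *IL18R1* passed *IL1RL1* in both clones.

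Of 12 IL1 family ligands and binding proteins, 3 were expressed enough to be tested in KO versus WT. Of these 2 fell, against 17.7% of all genes. *IL1B* was at 127 ± 4.03 CPM in WT, 50.9 ± 1.10 in 11H1 and 56.6 ± 1.19 in 14B5 (SD, n = 3 each), and fell by 1.24 on the log2 scale (edgeR adjusted p = 7.62e-07). *IL18* was at 23.1 ± 1.20 CPM in WT, 13.8 ± 0.390 in 11H1 and 12.7 ± 0.472 in 14B5, and fell by 0.80 (edgeR adjusted p = 2.13e-05). *IL18BP*, a secreted inhibitor of IL18, was at 12.3 ± 1.19 CPM in 11H1 against 5.32 ± 0.572 in WT and 4.22 ± 0.730 in 14B5. It rose in 11H1 (log2 difference 1.22, edgeR adjusted p = 1e-06), and the clones differed by 1.55 (edgeR adjusted p = 4.98e-07). *IL1A* and *IL1RN* did not exceed 3 and 2 counts, and the decoy receptor *IL1R2* did not exceed 5. The inhibitory receptor *SIGIRR* was at 24.9 ± 2.40 CPM in WT and was lower in 11H1 than in 14B5 (log2 difference −0.49, edgeR adjusted p = 1.35e-05).

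**Figure D2:**
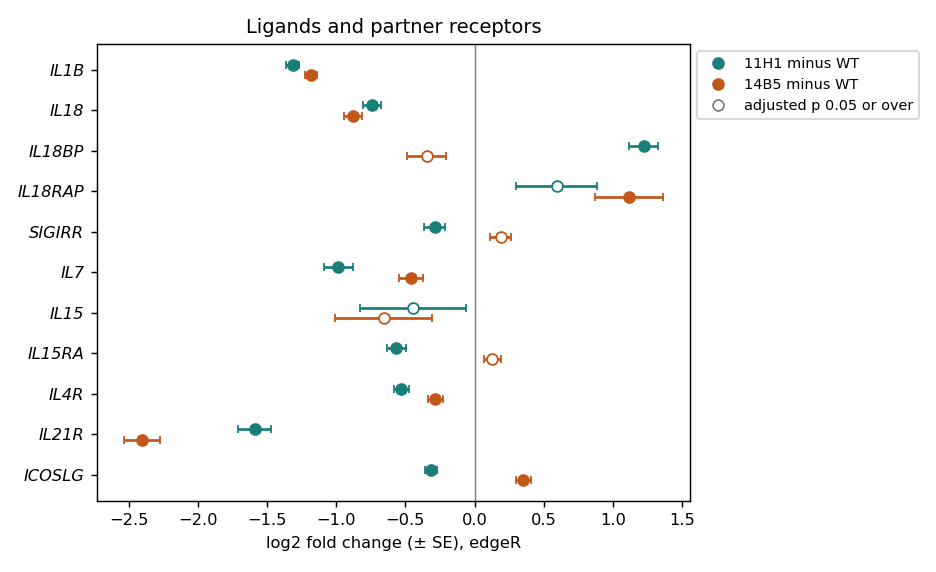
Log2 difference from WT (edgeR) of ligands and partner receptors in 11H1 and 14B5, with bars for the SE and open points where the adjusted p was 0.05 or over. *IL1B*, *IL18* and *IL21R* are below 0 in both clones, whereas *ICOSLG* is below 0 in 11H1 (−0.31) and above it in 14B5 (0.35).

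The IL2 receptor chains did not move together. *IL2RA* measured 0.732, 0.776 and 0.705 CPM across WT libraries, 0.165, 0.244 and 0.456 CPM across 11H1 libraries and 0.587, 0.719 and 0.592 CPM across 14B5 libraries. It was below WT in every 11H1 library, from 8 to 15 counts each, while 14B5 overlapped WT. The log2 difference between the clones was −1.20 (SE 0.340, edgeR adjusted p = 0.00853), and was no longer called without 11H1 replicate 1 (edgeR adjusted p = 0.0534).

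*IL2RB* measured 3.32, 3.29 and 3.87 CPM across WT libraries, 2.55, 2.32 and 2.49 CPM across 11H1 libraries and 3.91, 5.27 and 4.77 CPM across 14B5 libraries. As with *IL18R1*, all 11H1 libraries were below WT and all 14B5 libraries above it, with log2 differences of −0.49 (SE 0.127) and 0.40 (SE 0.131). The clones differed by −0.92 (SE 0.135, edgeR adjusted p = 9.37e-05). The pooled KO value was 0.03 (SE 0.281), and its sign changed with the library left out (−0.11 to 0.13). *IL2RG* measured 252, 242 and 266 CPM across WT libraries, 244, 239 and 254 CPM across 11H1 libraries and 281, 263 and 256 CPM across 14B5 libraries. The 3 groups lay close together, and both clones overlapped WT. The clone difference was −0.11 (SE 0.0472, edgeR adjusted p = 0.0570), and it passed the threshold in 4 of 11 other fits (adjusted p 0.0189 to 0.167 over all 11), among them those without 11H1 replicate 3 (0.0463) and without 14B5 replicate 3 (0.0189).

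Of 5 genes for other receptors that use the common γ chain, 4 were tested in KO versus WT. Of these 2 fell, against 17.7% of all genes, and 2 were not called. *IL21R* fell by 1.95 on the log2 scale (edgeR adjusted p = 0.000196), from 6.96 ± 0.735 CPM in WT to 2.31 ± 0.200 in 11H1 and 1.32 ± 0.153 in 14B5. *IL4R* fell by 0.40 (edgeR adjusted p = 0.00841), from 41.8 ± 2.03 CPM to 28.8 ± 1.04 and 34.7 ± 1.22, a call lost without WT replicate 2 (0.0527). *IL15RA*, the neighbour of *IL2RA* that encodes the IL15-binding chain, fell in 11H1 by 0.57 (edgeR adjusted p = 1.57e-05). In 14B5 its log2 difference from WT was 0.13 (edgeR adjusted p = 0.104), and the clones differed by −0.71 (edgeR adjusted p = 1.24e-06). The fourth, *IL9R*, has identical copies in the table and is left uncertain. Among the ligands, *IL2*, *IL9* and *IL21* had 0 counts in every library. *IL7* fell in KO by 0.69 (edgeR adjusted p = 0.0134), a call lost without WT replicate 2 (0.0570) or 3 (0.0527).

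All 9 genes passed the filter on low counts in each comparison. In KO versus WT, 7 of 9 had a log2 difference below 0 and 4 had every KO library below every WT library, against 20.3% of all genes tested. The median of the 9 was −0.42, against 0.02 over all genes. *ICOS*, *IL1RL1* and *PRKCH* were below −1, and the next lowest was *IL2RA* at −0.66. The rule sets no numeric threshold, and it used this contrast. In 11H1 versus WT, 7 of 9 had every library below WT (35.3% of all genes), and in 14B5 versus WT 4 did (31.1%) and 2 had every library above it (29.8%). The clones share the WT libraries, so these counts are not independent.

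Between the clones, 7 of the 9 genes passed the threshold, 5 lower in 11H1 (*IL1RL1*, *IL18R1*, *IL1RAP*, *IL2RA* and *IL2RB*) and 2 higher (*ICOS* and *PRKCH*). Over all genes tested 63.7% passed, with 32.1% lower and 31.6% higher in 11H1. Every 11H1 library was below every 14B5 library for 6 of the 9 and above for 1, against 35.1% and 33.6% of all genes. The share of the 9 is thus read against a comparison in which most genes differed. *IL18R1* and *IL2RB*, which were above WT in 14B5 and below it in 11H1, were among the lower ones. With 1 library left out the number called ranged from 4 to 7. The lowest number came without 11H1 replicate 1, when *ICOS*, *IL2RA* and *PRKCH* lost their calls.

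**Figure D3:**
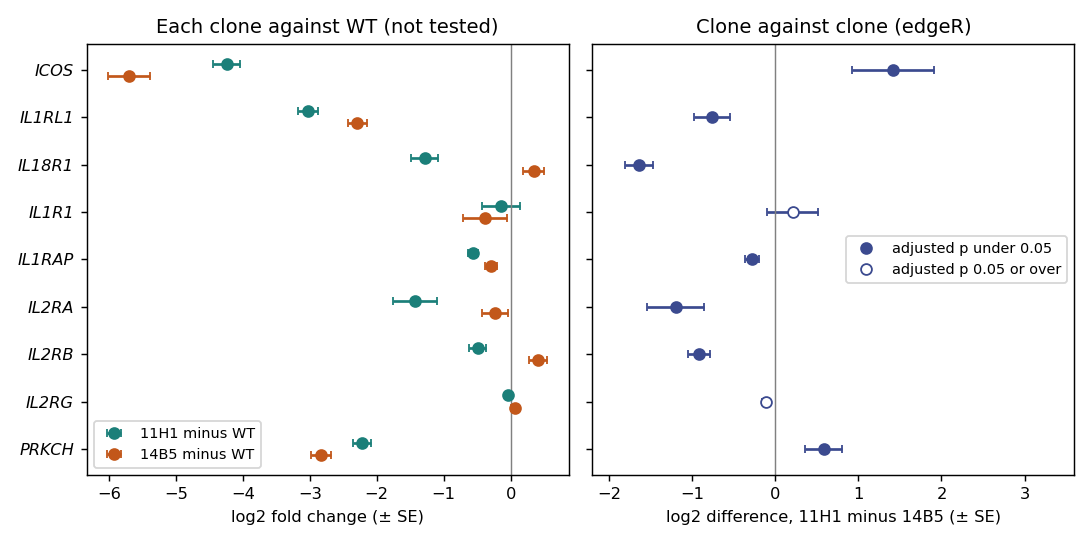
Left, log2 difference of each clone from WT for the 9 genes, not tested; right, log2 difference of 11H1 from 14B5 by edgeR, with filled points for an adjusted p under 0.05. Bars are the SE. *IL18R1* and *IL2RB* lie on opposite sides of 0 in the 2 clones, and *IL18R1* has the lowest clone difference, −1.64.

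Per kilobase of exon, the order of the levels also differed. In WT, *IL2RG* was highest at 91.7 CPM per kb, followed by *ICOS* at 2.23 and *IL1RAP* at 1.10. *IL1RL1*, *IL2RB* and *PRKCH* came next, at 0.836, 0.743 and 0.678, with neighbours in that order overlapping. *IL18R1* (0.374), *IL2RA* (0.186) and *IL1R1* (0.0738) closed the order. In 11H1, *IL2RG* was at 89.0 CPM per kb, *IL1RAP* at 0.736 and *IL2RB* at 0.522, and from *IL18R1* at 0.153 down to *IL1R1* at 0.0649 each gene overlapped the next. In 14B5, *IL2RG* was at 96.6 CPM per kb, *IL2RB* at 0.989 and *IL1RAP* at 0.904, the last pair overlapping, and *ICOS* was lowest at 0.0452, overlapping *IL1R1*. *ICOS* went from second place in WT to sixth in 11H1 and last in 14B5.

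Signalling genes downstream of these receptors were tested as lists. Of 17 IL2 receptor signalling genes 16 were tested in KO versus WT, and 2 rose and 3 fell, against 14.3% higher and 17.7% lower over all genes. In single clones 11 of the 16 passed in 11H1, 5 higher and 6 lower, and 8 in 14B5, 3 higher and 5 lower, against 64.6% and 53.5% of all genes in either direction. *SOCS3* and *CISH*, feedback inhibitors that STAT proteins induce, rose by 0.78 (edgeR adjusted p = 8.34e-05) and 0.39 (edgeR adjusted p = 0.00266). *PIK3CD*, a PI3 kinase subunit, fell by 0.56 (edgeR adjusted p = 5.98e-05), *SYK* by 0.31 (edgeR adjusted p = 0.00629) and *GAB2*, an adaptor, by 0.28 (edgeR adjusted p = 0.0137, but 0.0668 without WT replicate 3). *JAK3* was at 144 ± 5.16 CPM in WT, 199 ± 4.21 in 11H1 and 123 ± 4.49 in 14B5, and was higher in 11H1 than in 14B5 by 0.70 (edgeR adjusted p = 1.08e-07). The KO log2 difference was −0.14 for *STAT5A* (edgeR adjusted p = 0.0764, but 0.0479 without 14B5 replicate 3) and −0.01 for *STAT5B* (edgeR adjusted p = 0.963).

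All 21 IL1 receptor signalling genes were tested in KO versus WT, and 2 rose and 2 fell. *PELI2*, a ubiquitin ligase acting on IRAK complexes, fell by 0.90 (edgeR adjusted p = 0.000137) and *ECSIT* by 0.31 (edgeR adjusted p = 0.0463), the last call being lost without any 1 of the WT or 11H1 libraries (0.0522 to 0.181). *TRAF6* rose by 0.31 (edgeR adjusted p = 0.00471) and *CHUK*, a subunit of the IκB kinase, by 0.30 (edgeR adjusted p = 0.00970, but 0.0533 without WT replicate 1). Over all 8 lists of pathway genes, 64 of 91 were tested and 18 (28.1%) passed, 6 higher and 12 lower, below the 32.0% over all genes, with a median of −0.02. In single clones 39 of 63 (61.9%) passed in 11H1 and 32 of 64 (50.0%) in 14B5, against 64.6% and 53.5% over all genes. Between the clones 38 of 61 (62.3%) passed. The lists as a whole thus stood near the background in each comparison.

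Genes around the members were then examined. Of the 5 nearest tested genes on each side, 70 in all, 24 passed in KO versus WT, 21 lower and 3 higher, against 17.7% lower and 14.3% higher over all genes. In other fits the neighbours were picked anew among the genes tested there, so the counts are not of the same genes. They were 12 with no filter on low counts, which admits genes near 0, and 48 in a fit of 3 groups. In single clones 45 of 69 (65.2%) passed in 11H1 and 41 of 69 (59.4%) in 14B5, against 64.6% and 53.5% over all genes. Around *IL1R1*, *IL1RL1* and *IL18R1*, which share their 10 neighbours, 6 fell and 1 rose, with a median log2 difference of −0.64. *MAP4K4* lay 416813 bases before *IL1RL1* and fell by 0.60 in 11H1 (edgeR adjusted p = 6.56e-07) and 0.78 in 14B5 (edgeR adjusted p = 5.41e-07). *RNF149*, *CNOT11*, *MFSD9*, *TMEM182* and *MRPS9* were lower in both clones as well. *IL18RAP*, at only 0.291 CPM in WT, rose in 14B5 but was not called in 11H1 (edgeR adjusted p = 0.0974). *TBC1D8*, also low, rose in 11H1 from 0.311 CPM in WT to 0.783 (log2 difference 1.34, edgeR adjusted p = 0.00214). *IL18R1* in 14B5 was thus above WT among neighbours that were mostly below it. *SLC9A2*, the gene after *IL18RAP*, had log2 differences of 0.18 in 11H1 and −0.14 in 14B5.

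**Figure D4:**
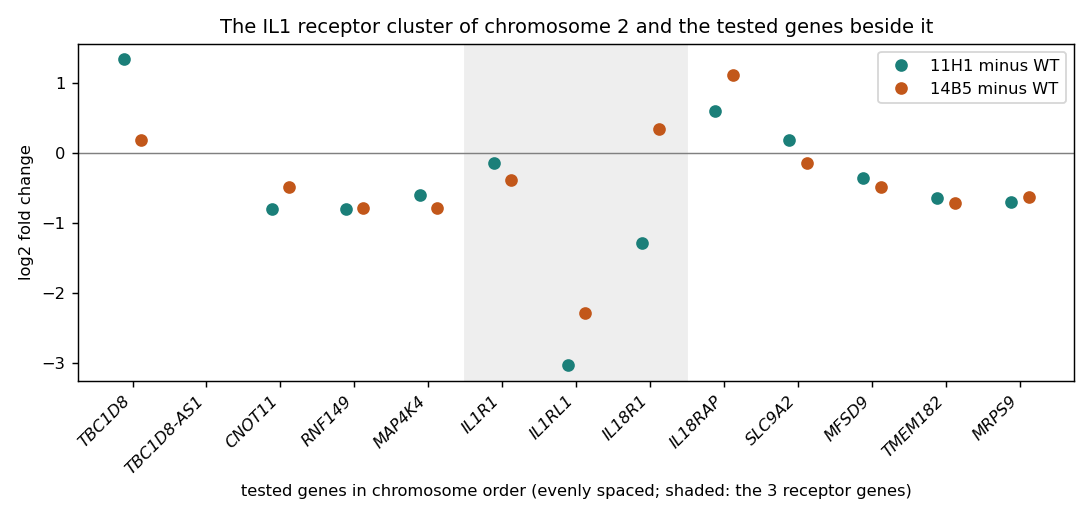
Log2 difference from WT of *IL1R1*, *IL1RL1*, *IL18R1* and their nearest tested genes in 11H1 and 14B5, evenly spaced in their order along chromosome 2, with the 3 receptor genes shaded. *MAP4K4*, *RNF149*, *CNOT11*, *MFSD9*, *TMEM182* and *MRPS9* are below 0 in both clones, and *TBC1D8-AS1* has no point because it was not tested in single clones.

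Elsewhere the nearest tested genes lay at different distances. *ICOS* stood alone, with *RAPH1* 401338 bases before it and *PARD3B* 584216 bases after it, and *PARD3B* fell in KO by 1.33 on the log2 scale (edgeR adjusted p = 0.00171). Of the 10 genes around *IL1RAP* 5 fell, against 17.7% of all genes tested. Among the 5 were the nearest on each side, *CLDN16* (edgeR adjusted p = 0.00153) and *CCDC50* (edgeR adjusted p = 0.000217). All but *CCDC50* of these 5 (*CLDN16*, *RTP4*, *FGF12* and *ATP13A4*) were low already in WT, at 0.267 to 0.788 CPM. Of the 10 genes around *IL2RB* 5 fell, with *C1QTNF6*, 5113 bases away, at −1.33 in 11H1 and −1.21 in 14B5 (KO edgeR adjusted p = 1.91e-06). The other places held fewer calls. Around *ICOS* and around *PRKCH* 2 of 10 fell, around *IL2RA* 1 fell and 2 rose, and around *IL2RG* 0 of 10 were called. Next to *IL2RA*, *RBM17* had a KO log2 difference of 0.16 (edgeR adjusted p = 0.0498) and *PFKFB3*, which encodes a regulator of glycolysis, fell by 0.57 (edgeR adjusted p = 0.00021). Next to *PRKCH*, *HIF1A* fell by 0.30 (edgeR adjusted p = 0.0194). The calls of *RBM17*, *HIF1A*, *TASOR2* near *IL2RA* and *NBEAL1* near *ICOS* were each lost in at least 2 of the 3 fits that leave out a WT library (adjusted p 0.0619 to 0.147).

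The genes with the most similar profiles were sought for the 3 members with the lowest KO values, by the root mean square difference of log2 CPM, centred on WT, over the 9 libraries and 13581 genes. For *ICOS* they were *KLHDC7A* (0.405), *ANGPT2* (0.469) and *CLCA1* (0.486). For *IL1RL1* they were *FBLN2* (0.131), *TPSB2* (0.145), a mast cell tryptase with a near-identical copy, and *AFAP1-AS1* (0.161), whose reads could not be told from those of its antisense partner if counting ignored strand. For *PRKCH* they were *ASB9* (0.234), *SMAD1* (0.241) and *COLGALT2* (0.243). *TPSB2* was at 9.55 ± 0.783 CPM in WT, 1.16 ± 0.134 in 11H1 and 2.12 ± 0.175 in 14B5. It was picked by its profile, so sharing the order of *IL1RL1* is no separate result. Low counts limit the matches of *ICOS*, which had 2 to 19 counts in a KO library. Its nearest gene, *KLHDC7A*, was at 4.29 CPM in WT, 0.146 in 11H1 and 0.0935 in 14B5.

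Mast cell and basophil genes were measured beside *IL1RL1* because these cells express it. Of 9 markers 8 were tested in KO versus WT and 6 fell, against 17.7% of all genes, with a median log2 difference of −1.45, and *CMA1* was at 0 in every library. *FCER1A*, the IgE receptor α chain, fell from 131 ± 2.08 CPM in WT to 47.4 ± 3.32 in 11H1 and 15.7 ± 0.284 in 14B5 (KO log2 difference −2.06, edgeR adjusted p = 0.00381). *CPA3*, a mast cell protease, fell from 17.5 ± 0.947 CPM to 3.87 ± 0.386 and 0.888 ± 0.0952 (edgeR adjusted p = 0.00207). *KIT* fell by 0.67 (edgeR adjusted p = 0.00504). The summed level of the list was 2001 to 2126 CPM in WT, 2072 to 2148 in 11H1 and 1623 to 1733 in 14B5, most of it from *HDC*. *HDC*, the histamine-forming enzyme, was at 1399 ± 78.4 CPM in WT, and rose in 11H1 by 0.33 on the log2 scale (edgeR adjusted p = 0.000175) and fell in 14B5 by 0.20 (edgeR adjusted p = 0.0146), the last call being lost without WT replicate 1 (0.0538) or 14B5 replicate 2 (0.0978). *ENPP3*, a basophil surface enzyme, was at 76.5 ± 3.36 CPM in WT and rose in 14B5 by 0.47 (edgeR adjusted p = 5.84e-05). Megakaryocyte markers were higher in 11H1 for 6 of 8 tested between the clones, against 31.6% of all genes, and 2 were not called. Among the 6, *GP9* was at 22.2 ± 2.11 CPM in WT, 4.27 ± 0.527 in 11H1 and 0.805 ± 0.216 in 14B5. The part of these genes in the level of *IL1RL1* was not tested.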

How the data were processed

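Poly(A) RNA of 9 SET2 libraries (WT, 11H1 and 14B5, n = 3 each) was sequenced. Expected counts from RSEM, unnormalized, are what the authors deposited; the submitters' processing notes name STAR 2.7.9a, Picard, RSEM and GRCh38, and the annotation release and RSEM version are not given in the sources used here. Of 60754 entries, 92 spike-ins were at 0 and left out. GENCODE v29 placed 58542 genes (96.5%) by identifier. No expected count column was left out (0).

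Expected counts were rounded and tested in R 4.3.3 with edgeR 4.0.16: TMM, filterByExpr, a quasi-likelihood F test, and adjustment by Benjamini-Hochberg over all genes tested, with a threshold of 0.05. KO (n = 6) and each clone were compared with WT, and the clones with each other. An exact permutation test of 3 against 3 libraries cannot go below 0.1. The study's own KO comparison left out a library that was not identified here; all 6 were used. Library totals of 32347779 to 60272245 leave a gene with 0 counts at up to 3 counts, a limit of counting error only.

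The members and lists were chosen with earlier results of these data known. The rule named the members, *DYRK1A*, for each pathway list up to 3 genes past the threshold in each direction with the largest change (mean level 1 CPM or more), the members' ligands and partners, the nearest tested neighbour on each side, and the 3 nearest profiles of *ICOS*, *IL1RL1* and *PRKCH*; marker genes and any others were named after their values were seen. Alternatives were DESeq2 1.42.0 size factors, its Wald test, no filter, a replicate block, a fit of 3 groups, 10 neighbours a side, and each library left out. Marker lists covered megakaryocytes, erythroid cells, T cells, mast cells and basophils, NK cells and monocytes. A gene of the erythroid list is not reported here. Scripts were tested on simulated data. Within groups, pairs of libraries gave a chi-square of 4.04 to 35.8 per gene, above counting noise, so none was a copy.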

Additional observations from a re-analysis of the deposited data

Results flagged for a closer look

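For 7 of the 9 genes the effect in 11H1 differed from that in 14B5, by the direct edgeR test of one clone against the other with adjusted p below 0.05, against 63.7% of all genes tested between the clones. Both effects are measured against the same WT libraries, so the difference of the effects is the difference between the clones. The log2 difference of 11H1 from 14B5 was 1.42 for *ICOS*, 0.58 for *PRKCH*, −0.28 for *IL1RAP*, −0.76 for *IL1RL1*, −0.92 for *IL2RB*, −1.20 for *IL2RA* and −1.64 for *IL18R1*. *IL18R1* and *IL2RB* lay on opposite sides of WT in the clones. Why the clones differ was not tested.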

How the results depend on the processing

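KO versus WT called 5471 genes with the clones pooled as KO, and a fit of 3 groups, in which each clone is its own group, 10245. In that fit the pathway lists held 39 calls, against 18, and the neighbours 48, against 24 of 70. The neighbours were picked anew among the genes tested in each fit, so their counts are not of the same genes. They held 12 calls with no filter on low counts. With 10 genes on each side, a larger set, 54 of 140 were called. Why the calls of the fits differed was not tested. With each library left out, the calls ranged from 3677 to 5531 in KO versus WT, 9685 to 11091 in 11H1 versus WT, 7597 to 9040 in 14B5 versus WT and 9193 to 10204 between the clones, and members called between the clones from 4 to 7. *IL1RL1*, *IL18R1*, *IL1RAP* and *IL2RB* kept their clone calls in all 11 alternatives, and the clone call of *IL2RG*, not made, was gained with the DESeq2 Wald test (0.0495) and no filter (0.0213). The adjusted p of *IL1R1* ran from 0.286 to 0.922. No value changed direction past a threshold. The pooled *IL2RB* value was −0.04 in the fit of 3 groups, against 0.03, and the sign of *IL2RG* also changed with the library left out (−0.01 to 0.05).

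Libraries with the same replicate number did not deviate together (correlations of −0.145 to 0.0581), so the numbers do not pair them. A fit with the replicate number as a block called 3937 genes in KO versus WT, 10710 in 11H1 versus WT, 7529 in 14B5 versus WT and 10099 between the clones, 7 members among the last. With the block, the pooled KO calls of *IL18RAP*, *ECSIT*, *NBEAL1*, *TASOR2*, *RBM17* and *HIF1A* and the 14B5 call of *DYRK1A* were lost (adjusted p 0.0580 to 0.128). *STAT5A* and *PRKCE* passed in KO versus WT with the DESeq2 Wald test (adjusted p 0.0100 and 0.0164) and in the fit of 3 groups (0.00346 and 0.00693). Depth limits *ICOS*, *IL2RA* and *IL1R1* most, with 2 to 43 counts in a KO library. Counts in a KO library were also low for *IL1RL1* (19 to 54), *IL18R1* (22 to 128) and *PRKCH* (34 to 74).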

Other observations

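Genes of other blood lineages were measured in the same libraries. Of 9 erythroid markers tested in KO versus WT, 1 rose and 1 fell, against 14.3% and 17.7% of all genes. The median log2 difference of the list was 0.02. *EPOR*, the erythropoietin receptor, was the marker that rose, from 49.6 ± 3.77 CPM (SD, n = 3) in WT to 102 ± 4.96 in 11H1 and 95.6 ± 6.54 in 14B5 (log2 difference 0.99, edgeR adjusted p = 8.68e-06). The summed level of the list was 13670 to 15610 CPM in WT, 12940 to 14050 in 11H1 and 15060 to 16520 in 14B5, with globin genes that have near-identical copies taking most of it.

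Of 5 monocyte markers 3 were tested in KO versus WT and all 3 fell, against 17.7% of all genes. *LYZ* was at 196 ± 1.73 CPM in WT, 105 ± 3.89 in 11H1 and 117 ± 6.09 in 14B5 (log2 difference −0.82, edgeR adjusted p = 1.53e-05). *CSF1R*, also tested, did not exceed 23 counts, and *CD14* did not exceed 7. The monocyte list summed to 198 to 201 CPM in WT, 102 to 109 in 11H1 and 111 to 123 in 14B5, most of it from *LYZ*. Of 3 NK cell markers tested in KO versus WT 1 fell, against 17.7% of all genes. It was *NCAM1*, which fell in both clones, from 5.46 ± 0.376 CPM to 0.199 ± 0.0760 and 0.147 ± 0.108 (KO log2 difference −4.96, edgeR adjusted p = 3.68e-06). *NKG7* was at 18.5 ± 0.906 CPM in WT, 11.1 ± 1.03 in 11H1 and 18.7 ± 0.686 in 14B5, and was not called in KO (edgeR adjusted p = 0.304). *GNLY* was low in 11H1, at 1.57 ± 0.0403 CPM, against 7.09 ± 0.399 in WT and 7.47 ± 0.978 in 14B5, and the clones differed by −2.24 (edgeR adjusted p = 5.28e-08). The NK cell list summed to 30.2 to 32.0 CPM in WT, 11.8 to 13.8 in 11H1 and 24.6 to 28.1 in 14B5.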
